A study of Homo sapiens with 12 samples.

Results

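The 47 genes described here are mitosis and G2/M genes, that is, genes whose products drive a cell from G2 phase into mitosis, build the spindle, segregate the chromosomes and divide the cell. They were taken by gene symbol from a list chosen with earlier results of these data known, and all 47 were found among the 26485 genes of the count table. The study used the human prostate carcinoma cell line DU145, in which the α2 integrin gene ITGA2 had been disrupted with CRISPR-Cas9, and all 3 lines sequenced carry that knock-out. DU145KO received no further construct, DU145KO+vector was stably transfected with the empty pAWneo2 vector, and DU145KO+a2 with the same vector carrying α2 integrin cDNA. The 2 transfected lines were kept in geneticin. Each line is 1 cell line with 4 replicates, and whether a line goes back to 1 clone is not given in the sources used here. The cells were grown for 72 h as spheroids of 8000 cells in serum-free medium, and poly(A) RNA was sequenced from 12 samples.

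Mitosis and G2/M genes are transcribed in waves. In many of them a promoter element called the cell cycle gene homology region, together with a CCAAT box, is kept silent in resting cells by a complex of pocket proteins and MuvB proteins, and is switched on in G2 by MuvB with B-MYB and FOXM1. Cyclin B and CDK1 trigger entry into mitosis, Aurora and Polo-like kinases organise the spindle poles and the centromeres, and the spindle assembly checkpoint holds back the anaphase-promoting complex until every chromosome is attached. That complex then marks securin and cyclin B for destruction with the help of the ubiquitin-conjugating enzymes UBE2C and UBE2S. In a bulk RNA sample a lower level of such genes can come from fewer cycling cells or from less RNA per cell, and these cannot be told apart.

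Between 13948734 and 19988111 reads per sample were assigned to genes (median 16446500.5), so that 3 reads, the number taken as the limit of detection, stood for 0.150 to 0.215 CPM (reads assigned to a gene scaled to library size, with TMM factors). After the filter on low counts 14732 genes were tested, the 47 members among them. The targeted gene followed the labels, and ITGA2 RNA lay between 259.4 and 332.1 CPM in DU145KO+a2, between 15.7 and 25.8 CPM in DU145KO and between 13.0 and 20.2 CPM in DU145KO+vector. The residual signal in the knock-out lines does not check the edit itself, since an edited gene can still be transcribed. All 5 epithelial markers were expressed, from 61.3 CPM (mean of CDH1 in DU145KO+a2) to 521 CPM (mean of KRT8 in DU145KO+vector). The prostate luminal markers KLK3 and KLK2 had no reads in any sample, and TMPRSS2 stayed below 1 CPM. The fibroblast markers DCN, LUM, COL1A2 and COL3A1 were at or near 0, and COL1A1 averaged 9.06 to 10.7 CPM. PDGFRB had 2 to 12 reads per sample and was called lower in DU145KO+a2 than in DU145KO+vector (-1.47, adjusted p = 0.0322) and than in DU145KO (-1.48, adjusted p = 0.0396), and its part in the members' values was not tested.

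The replicate numbers of the 3 lines marked samples that deviated together across all genes, which bears on every value below. Main tests compared the lines without a term for the replicate number, and the fit with the replicate number as a block is given beside them where it changes a call. A gene is called where its p-value, adjusted over the 14732 genes, is below 0.05, and percentages of all genes called are given for reference.

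The members were expressed over a wide range. On the authors' length-scaled RPKM values, which allow levels of different genes to be compared, BUB3 was the highest member in each line, with line means of 61.1 RPKM in DU145KO, 65.9 in DU145KO+vector and 56.6 in DU145KO+a2. CDC25B came next in each line, at 43.3, 36.3 and 54.3 RPKM. UBE2C stood behind SMC4, NUSAP1 and TOP2A in DU145KO (26.1 RPKM) and in DU145KO+vector (26.6 RPKM), and ahead of them in DU145KO+a2, where its mean was 54.0 RPKM ± 12.4 (SD, n = 4). That mean differed from those of CDC25B and BUB3 in the same line by less than the SD. The lowest members were SPC25, NCAPH and CDC25C, with line means of 0.728 to 1.39 RPKM.

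Many of these genes share promoter elements, so the sequences at their start sites are shown first. RefSeq promoter windows of 300 bases (250 before and 50 after a start site, GRCh38.p14) were held for 39 of the 47 genes, and AURKA, BIRC5, BUB3, FOXM1, RACGAP1, TPX2, TTK and UBE2C had no entry. The letters TTTGAA, the core of the cell cycle gene homology region, were present on either strand in 28 of the 39 members (71.8%), against 18.2% of the 27305 genes in the promoter table. CCAAT was present in 31 of 39 (79.5%), against 39.7% of all genes. TTCGAA was found in 3 members (7.69%, against 1.82%) and CTTGAA in 2 members (5.13%, against 13.4%). Both strands were searched, and TTTGAA and CCAAT can share at most 1 base at their ends. A match describes the window and is not a binding site. The parts of the windows from 250 bases before the start site are printed here for 4 members, SMC2, ZWINT, SPC25 and SMC4. Of the 28 members with TTTGAA, these had the smallest unadjusted p between DU145KO+a2 and DU145KO+vector, and were picked for it. Members without TTTGAA had log2 fold changes on both sides there, such as CCNA2 (-0.68) and CDC25B (0.58). A link between the letters and the values was not tested. The sequences run in the direction of the gene, with TTTGAA, its reverse complement TTCAAA and CCAAT in capitals. SMC2 (chr9:104094059-104094311, plus strand) holds the reverse form across the start site of this window. ZWINT (chr10:56361274-56361523, minus strand) holds the reverse form 17 bases before its start, and CCAAT at 102 and 52 bases before it. SPC25 (chr2:168890428-168890680, minus strand) holds TTTGAA 247 and 3 bases before its start, with CCAAT at 88 and 56 bases before it. SMC4 (chr3:160399400-160399649, plus strand) holds the reverse form 75 bases before its start. Distances run from the first base of the motif to the start site of the printed window. SMC2 and SMC4 each have another window, at another start site, without TTTGAA, and a gene was counted above where any of its windows held the letters.
SMC2: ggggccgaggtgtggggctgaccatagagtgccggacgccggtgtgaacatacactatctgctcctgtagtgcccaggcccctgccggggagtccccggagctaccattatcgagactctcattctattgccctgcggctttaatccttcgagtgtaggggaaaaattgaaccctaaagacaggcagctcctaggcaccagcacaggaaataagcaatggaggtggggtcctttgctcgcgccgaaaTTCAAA
ZWINT: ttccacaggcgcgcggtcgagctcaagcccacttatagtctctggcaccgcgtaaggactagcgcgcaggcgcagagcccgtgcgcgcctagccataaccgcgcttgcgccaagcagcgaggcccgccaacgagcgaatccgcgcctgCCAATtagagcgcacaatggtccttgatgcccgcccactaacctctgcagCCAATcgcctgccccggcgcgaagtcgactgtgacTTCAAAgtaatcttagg
SPC25: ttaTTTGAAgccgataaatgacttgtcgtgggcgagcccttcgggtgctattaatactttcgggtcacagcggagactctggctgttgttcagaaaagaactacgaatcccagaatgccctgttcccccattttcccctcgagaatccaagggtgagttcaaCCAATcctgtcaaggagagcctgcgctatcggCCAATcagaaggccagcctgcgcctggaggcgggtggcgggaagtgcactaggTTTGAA
SMC4: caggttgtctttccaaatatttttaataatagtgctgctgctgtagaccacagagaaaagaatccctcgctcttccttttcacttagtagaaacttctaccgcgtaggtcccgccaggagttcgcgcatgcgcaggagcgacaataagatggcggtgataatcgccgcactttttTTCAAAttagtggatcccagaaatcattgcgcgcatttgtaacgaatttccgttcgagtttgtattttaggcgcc

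The largest common movement of the members was with the replicate number and not with the line. In the model with line and replicate number, 44 of 47 members (93.6%) differed between replicate numbers, against 35.7% of all genes. For all 44, the fitted level of replicate 4 was the highest of the 4 numbers, against 9.02% of all genes called with that order. In 45 of 47 members the sample of replicate 4 was the highest of each of the 3 lines, which held for 6.92% of all genes. The fitted difference of replicate 4 from replicate 1 had a median of 0.93 log2 units over the members and of -0.00106 over all genes. The members' median deviation from their own means, on the log2 scale, was 0.63, 0.99 and 0.60 in replicate 4 of DU145KO, DU145KO+vector and DU145KO+a2. Replicate 3 was the lowest sample of DU145KO (-0.80) and of DU145KO+a2 (-0.56), but in DU145KO+vector it stood at 0.19, above replicates 1 (-0.03) and 2 (-0.12).

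**Figure D1:**
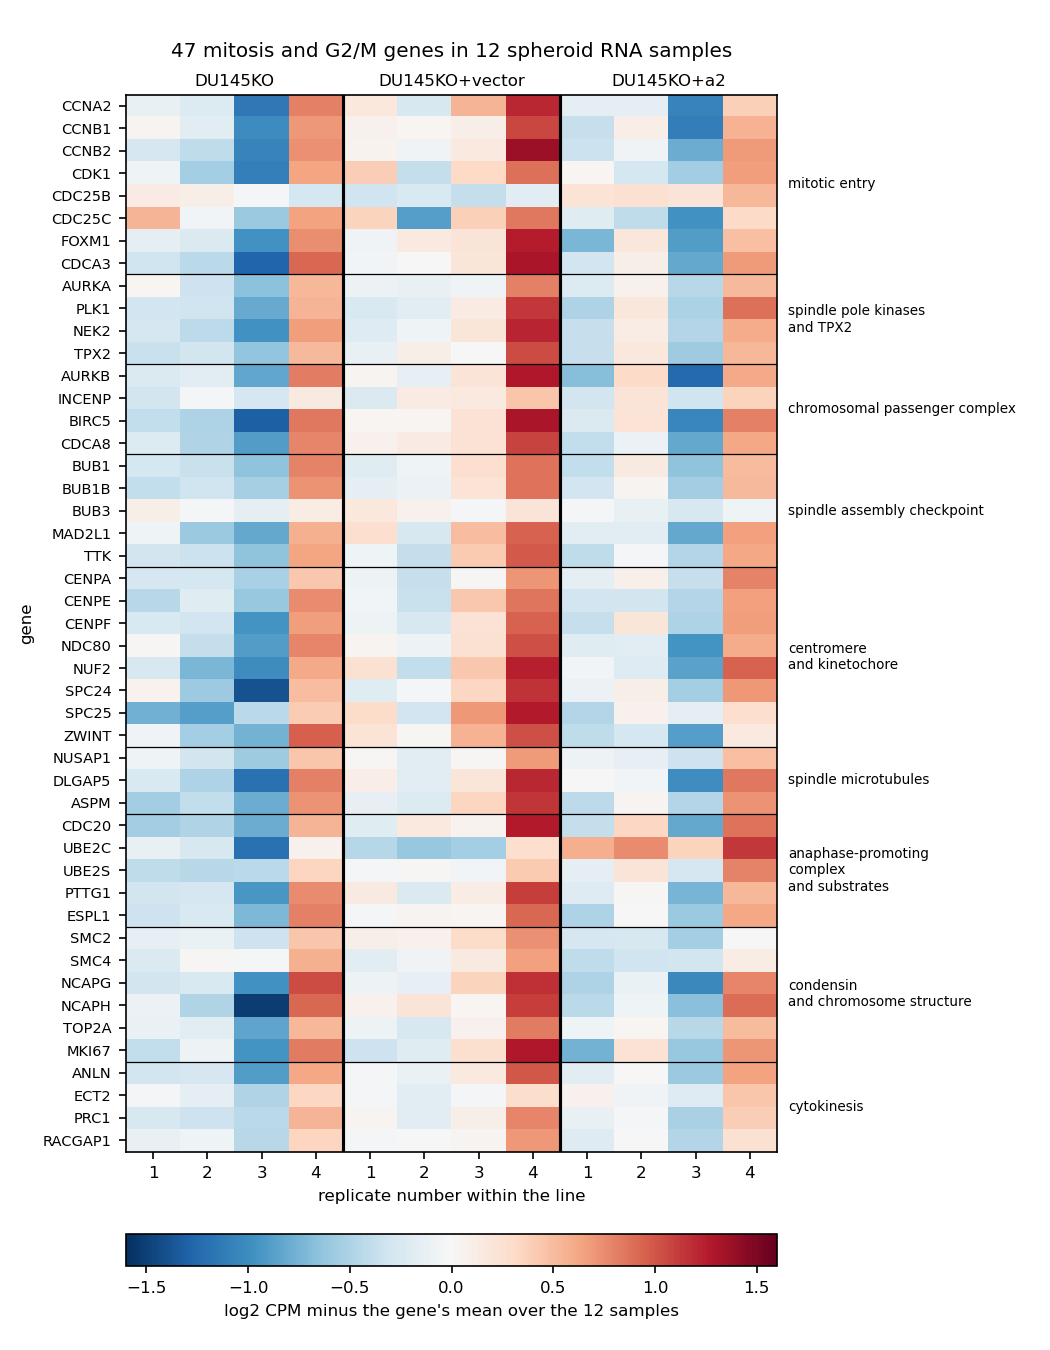
Log2 CPM of each of the 47 genes (rows, grouped by role) minus its mean over the 12 samples, in the 4 replicates of DU145KO, DU145KO+vector and DU145KO+a2 (columns), with red above and blue below the mean. In 45 of 47 genes replicate 4 is the highest sample of each line, the UBE2C row is red across DU145KO+a2, and the BUB3 row stays pale.

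MKI67, the Ki-67 protein that coats mitotic chromosomes, had the highest fitted difference of replicate 4 from replicate 1 among the members. Its level, replicate by replicate, was 53.7, 66.2, 36.4 and 125 CPM in DU145KO, 56.1, 61.8, 83.8 and 172 CPM in DU145KO+vector and 41.7, 82.3, 46.2 and 115 CPM in DU145KO+a2. Replicate 4 lay 1.43 log2 units above replicate 1 over the lines (adjusted p = 0.0198), and the 3 lines overlapped. FOXM1, the forkhead factor that drives G2 transcription, stood at 17.4, 16.4, 9.90 and 32.3 CPM in DU145KO, at 18.6, 21.5, 22.4 and 46.3 CPM in DU145KO+vector and at 11.68, 21.9, 10.4 and 26.9 CPM in DU145KO+a2. Its replicate 4 was 1.14 log2 units above replicate 1 (adjusted p = 0.0108). Among the 9 roles, the median of this difference ran from 0.62 for the cytokinesis genes to 1.10 for the chromosomal passenger complex.

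For the replicate number, 3 members were not called, and BUB3 was called in another pattern. CCNA2 (adjusted p = 0.0701) and ZWINT (adjusted p = 0.0588) had replicate 4 differences of 0.85 and 0.82 log2 units, close to those of their neighbours in role. CDC25B, a phosphatase that activates cyclin-dependent kinases at the centrosome, had a difference of 0.03 (adjusted p = 0.843). BUB3, a WD-repeat protein of the spindle checkpoint, had a replicate 4 difference of 0.01 and was called (adjusted p = 0.00701) with replicate 3 as the lowest sample of DU145KO, DU145KO+vector and DU145KO+a2 (153, 167 and 142 CPM).

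**Figure D2:**
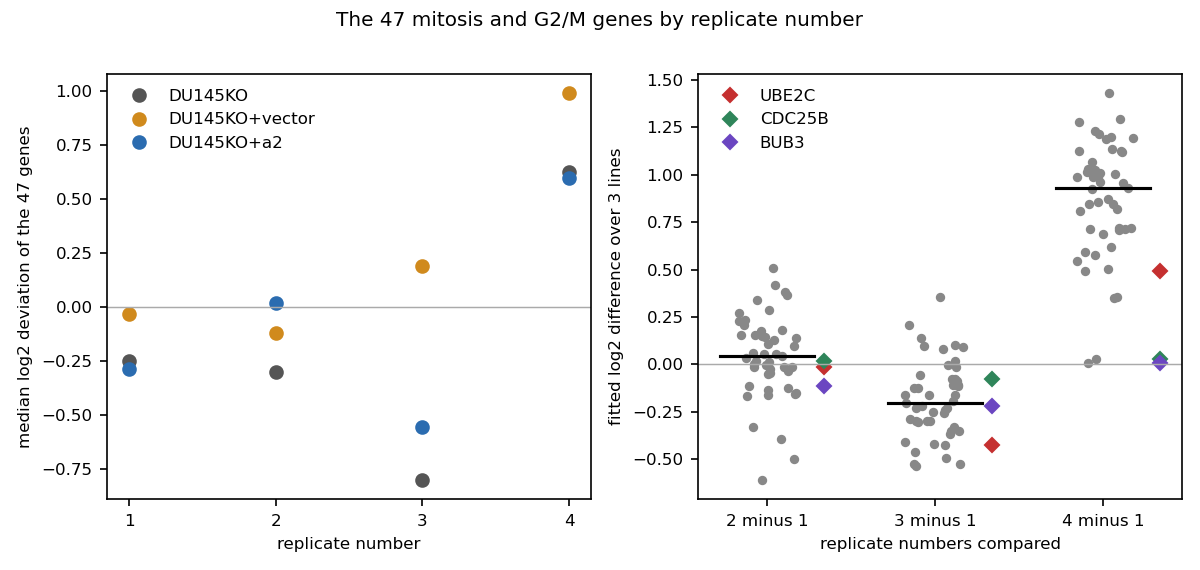
Left, the median log2 deviation of the 47 genes in each sample against the replicate number, coloured by line. Right, fitted log2 differences of replicates 2, 3 and 4 from replicate 1 over the 3 lines, with each member as a grey point, the median as a bar, and UBE2C, CDC25B and BUB3 repeated as coloured diamonds. The median is 0.05 for replicate 2, -0.21 for replicate 3 and 0.93 for replicate 4, and CDC25B and BUB3 lie near 0 in the last.

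The replicate effect rested on replicate 4. With replicate 4 left out of all 3 lines, 3 of 47 members (BUB3, INCENP and TPX2) were called, against 25.7% of the 14751 genes then tested. Leaving out single samples kept the count between 35 (without DU145KO replicate 4) and 46. The TMM factor of replicate 4 was the highest of each line (1.02, 1.02 and 1.01), with totals of 16737269 reads in DU145KO, 14273342 in DU145KO+vector and 15549940 in DU145KO+a2, inside the range of the other samples, and its part in the result was not tested. What the replicate number stands for (day, passage or extraction) is not given in the sources used here.

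Genes outside the 47 were read on lists chosen by function, also with earlier results of these data known. Of 58 further mitosis and G2/M genes that were tested, 47 differed between replicate numbers (81%), with a median replicate 4 difference of 0.62. Of 33 G1/S and DNA replication genes, 26 did (78.8%), with a median of 0.38. The subunits and cofactors of the anaphase-promoting complex stood near all genes, with 6 of 17 called (35.3%) and a median of 0.01, and so did MuvB, B-MYB and pocket protein factors, with 4 of 12 (33.3%) and a median of 0.09.

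The comparison of DU145KO+a2 with DU145KO+vector sets a line with α2 cDNA against a line without it, where both carry the vector. Each is 1 cell line, so α2 integrin cannot be told apart from other differences between the 2 lines. Of the 47 members, 2 were called higher in DU145KO+a2, UBE2C and CDC25B (4.26%, against 5.96% of all genes), and 0 were called lower (against 5.95% of all genes; at an unadjusted p under 0.05, 2 members were higher and 2 lower, against 12.2% and 12.7% of all genes). DESeq2 and voom with limma each called 1 member lower. The direction was nevertheless shared: 42 of 47 fitted log2 fold changes were negative, against 51.4% of all genes, and 5 were positive, against 48.6%, and the median was -0.33 over the members and -0.01 over all genes. The members rise and fall together from sample to sample, so these counts are not 47 independent observations. With the replicate number as a block, 9 members were called lower (19.1%, against 13.7% of all genes) and the same 2 higher (4.26%, against 12.9%). The 9 were BUB3, CCNB2, CDCA8, ESPL1, RACGAP1, SMC2, SMC4, SPC25 and TPX2. Past a 2-fold change and the adjusted p together, UBE2C was the 1 member higher, against 1.38% of all genes. Groups of 4 samples did not overlap for 2 members that were higher, UBE2C and CDC25B (against 8.4% of all genes), and for 2 that were lower, BUB3 and SMC2 (against 8.8%). Without DU145KO+vector replicate 4 the median was -0.04, and without DU145KO+a2 replicate 4 it was -0.63. The blocked count of 9 became 25 without DU145KO+a2 replicate 2, 23 without DU145KO+vector replicate 2, and 5 without DU145KO+a2 replicate 3 or replicate 4. The share of all genes called in those fits is not given here, so the counts are not read as particular to the members. BUB3, CDCA8, RACGAP1, SMC2 and SMC4 were called in all 8 blocked fits that leave out 1 sample. When replicate 4 was left out of every line, 4 members were called lower under the block, BUB3, CDCA8, SMC2 and SMC4 (against 10.1% of 14751 genes). The epithelial markers moved in the same direction in this comparison, with 5 of 5 log2 fold changes negative and CDH1 called (-0.70). In DU145KO+a2 against DU145KO all 5 were negative and 3 called lower (against 5.08% of all genes), where the members' median was 0.07. In DU145KO+vector against DU145KO 3 were negative and 1 called lower (against 1.84%), where the members' median was 0.40. The part of these markers in the members' values was not tested.

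Pair by pair, 9 members were lower in DU145KO+a2 in 4 of 4 pairs (against 22.5% of all genes). The members were mostly lower in DU145KO+a2 in replicates 1, 3 and 4, where 42, 45 and 42 of 47 were below DU145KO+vector with medians of -0.25, -0.81 and -0.39 log2 units. In replicate 2 the sign was opposite, with 38 of 47 members higher and a median of 0.11.

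**Figure D3:**
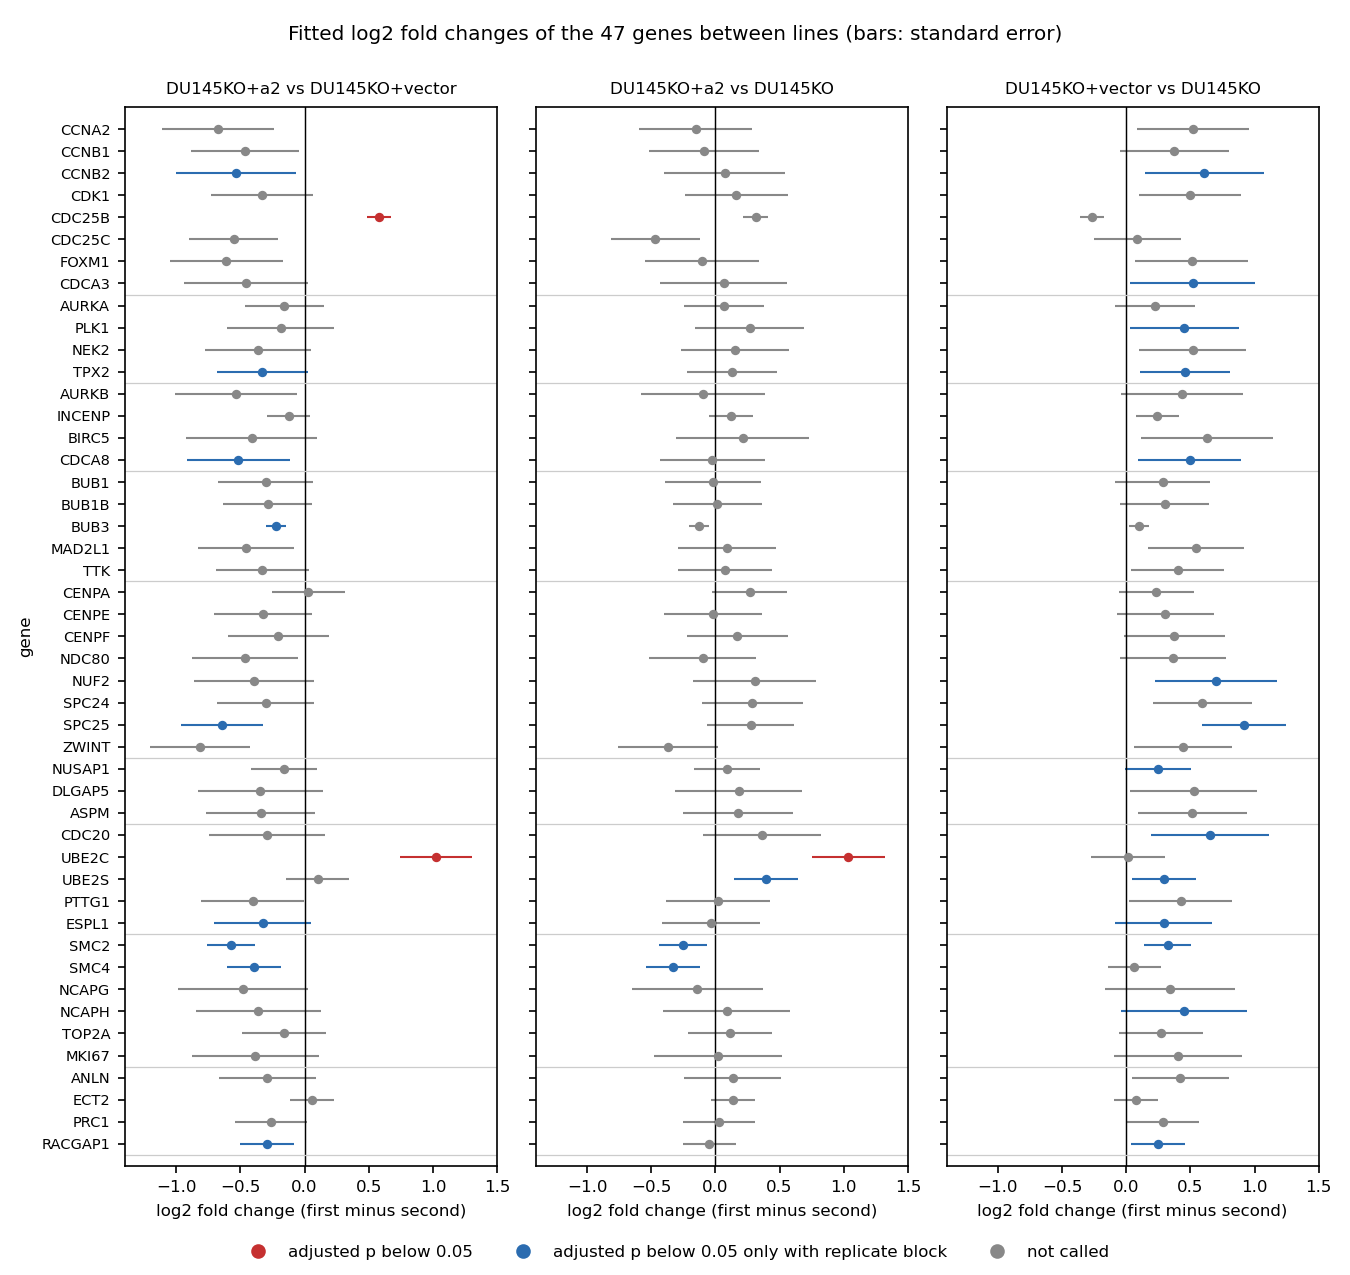
Fitted log2 fold changes (points) with standard errors (bars) of the 47 genes in the 3 comparisons of lines, from 12 samples without a replicate block. Red marks an adjusted p below 0.05, blue a gene called only with the replicate block, grey the rest. UBE2C and CDC25B lie to the right in the first panel, most other members lie to its left, and 46 of 47 lie to the right in the third panel.

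Condensin, whose SMC2 and SMC4 subunits form the arms that fold mitotic chromosomes, had the smallest adjusted p-values of the members under the block. SMC2 stood at 59.6, 60.1, 49.3 and 72.3 CPM in DU145KO+a2 and at 76.8, 75.5, 88.4 and 119 CPM in DU145KO+vector, with 65.4, 67.0, 57.0 and 97.8 CPM in DU145KO. No DU145KO+a2 sample reached the lowest DU145KO+vector sample. Its log2 fold change was -0.58 (SE 0.19, adjusted p = 0.0662), and -0.57 under the block (SE 0.08, adjusted p = 3.85e-05). SMC4 stood at 121, 128, 131 and 174 CPM in DU145KO+a2, at 143, 154, 177 and 254 CPM in DU145KO+vector and at 137, 163, 157 and 239 CPM in DU145KO. DU145KO+a2 was the lowest line in each of the 4 replicate numbers, although the groups overlapped. The log2 fold change to DU145KO+vector was -0.39 (SE 0.21, adjusted p = 0.281) and -0.37 under the block (SE 0.06, adjusted p = 3.54e-05). NCAPG and NCAPH, regulatory subunits of condensin I, and TOP2A, the topoisomerase that untangles chromosomes, had log2 fold changes of -0.48, -0.36 and -0.16 and were called in neither fit. In SMC4, 22.0% of the exon bases overlap IFT80 and TRIM59 on the other strand, and the strand setting of the counting is not given in the sources used here.

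At the centromere and kinetochore, 7 of 8 members had negative log2 fold changes and SPC25 was called under the block. SPC25, a subunit of the NDC80 complex that grips microtubules, had 1.80, 2.60, 2.24 and 2.99 CPM in DU145KO+a2, 3.05, 2.01, 4.03 and 5.99 CPM in DU145KO+vector and 1.46, 1.34, 1.84 and 3.28 CPM in DU145KO. That gave -0.64 on the log2 scale (SE 0.32, adjusted p = 0.231, and 0.0293 under the block). Line means of 32.5 and 41.5 reads in DU145KO and DU145KO+a2 limit its precision. ZWINT, another kinetochore protein, stood at 23.04, 25.0, 16.5 and 34.0 CPM in DU145KO+a2, at 35.4, 30.8, 44.9 and 62.0 CPM in DU145KO+vector and at 29.2, 21.0, 17.9 and 58.9 CPM in DU145KO. It was lower than DU145KO+vector in all 4 pairs, with the largest negative value of the members at -0.81 (SE 0.39, adjusted p = 0.231, and 0.0521 under the block). NDC80, NUF2 and SPC24 of the NDC80 complex lay between -0.46 and -0.30, the motor CENPE and the matrix protein CENPF at -0.32 and -0.20, and the centromeric histone CENPA at 0.03, with no call in either fit.

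Among the mitotic entry genes, 7 of 8 were negative and CDC25B stood apart. CCNB2, cyclin B2, was at -0.54 and was called under the block (adjusted p = 0.0131). CCNA2, CCNB1 and CDK1 were at -0.68, -0.46 and -0.33, FOXM1 at -0.61 and CDCA3 at -0.46, with no call in either fit. CDC25C, the phosphatase that removes the inhibitory marks of CDK1, had 2.42, 2.099, 1.42 and 3.44 CPM in DU145KO+a2, 3.55, 1.51, 3.62 and 4.96 CPM in DU145KO+vector and 4.04, 2.69, 1.84 and 4.33 CPM in DU145KO. The groups overlapped, at a log2 fold change of -0.55 (SE 0.35, adjusted p = 0.364).

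CDC25B moved the other way. It stood at 219, 223, 219 and 272 CPM in DU145KO+a2, at 151, 160, 145 and 169 CPM in DU145KO+vector and at 208, 201, 186 and 156 CPM in DU145KO. All DU145KO+a2 samples were above all samples of both other lines. Its log2 fold change was 0.58 to DU145KO+vector (SE 0.10, adjusted p = 0.00105, and 0.0022 under the block). To DU145KO it was 0.31 (SE 0.10, adjusted p = 0.0576, and 0.0554 under the block).

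Of the spindle pole genes, TPX2, which activates Aurora A on spindle microtubules, was called under the block. It stood at 47.9, 69.4, 41.6 and 89.4 CPM in DU145KO+a2, at 56.8, 66.1, 61.6 and 128 CPM in DU145KO+vector and at 48.1, 50.4, 39.8 and 88.3 CPM in DU145KO, for a log2 fold change to DU145KO+vector of -0.33 (SE 0.35, adjusted p = 0.637, and 0.0203 under the block). NEK2, a kinase that separates the centrosomes, had 10.5, 14.6, 9.75 and 20.4 CPM in DU145KO+a2 and 11.69, 12.9, 15.5 and 31.4 CPM in DU145KO+vector, with 11.2, 10.1, 6.88 and 21.4 CPM in DU145KO. PLK1, Polo-like kinase 1, had 9.44, 15.0, 9.33 and 24.3 CPM against 11.2, 11.71, 14.5 and 28.9 CPM, with 10.7, 10.6, 7.56 and 19.3 CPM in DU145KO. In both genes replicate 2 was higher in DU145KO+a2 and the other replicates lower. NEK2, PLK1 and AURKA had log2 fold changes of -0.36, -0.19 and -0.16 with no call.

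The chromosomal passenger complex brings Aurora B to the centromere. CDCA8, borealin, stood at 7.45, 9.20, 5.55 and 15.0 CPM in DU145KO+a2, at 10.3, 10.8, 11.5 and 20.8 CPM in DU145KO+vector and at 8.47, 7.03, 5.29 and 16.9 CPM in DU145KO. It was lower than DU145KO+vector in all 4 pairs, by a log2 fold change of -0.52 (SE 0.40, adjusted p = 0.489, and 0.00412 under the block). AURKB, its kinase, had 4.35, 8.65, 2.95 and 10.6 CPM against 7.20, 6.39, 8.05 and 17.0 CPM, with 5.95, 6.17, 3.93 and 12.4 CPM in DU145KO. INCENP, the scaffold, varied least, from 15.9 to 25.3 CPM in DU145KO+a2, from 16.9 to 27.1 CPM in DU145KO+vector and from 16.1 to 21.9 CPM in DU145KO. AURKB, BIRC5 (survivin) and INCENP had log2 fold changes of -0.53, -0.41 and -0.12 with no call.

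For the spindle assembly checkpoint all 5 values were negative, and BUB3 was called under the block. BUB3 stood at 167, 155, 142 and 161 CPM in DU145KO+a2, at 191, 177, 167 and 196 CPM in DU145KO+vector and at 181, 165, 153 and 184 CPM in DU145KO. It was lowest in DU145KO+a2 in each of the 4 replicate numbers, and a log2 fold change to DU145KO+vector of -0.22 (SE 0.08) had adjusted p-values of 0.083, and 0.00116 under the block. MAD2L1, the checkpoint protein that sequesters CDC20, had 11.4, 11.3, 7.27 and 20.3 CPM in DU145KO+a2, 15.4, 10.7, 18.01 and 24.6 CPM in DU145KO+vector and 12.2, 8.49, 7.25 and 19.0 CPM in DU145KO. It and the kinases TTK, BUB1 and BUB1B had log2 fold changes from -0.45 to -0.29, with no call in either fit. The groups of MAD2L1 overlapped.

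The spindle microtubule genes ASPM, DLGAP5 and NUSAP1 had log2 fold changes of -0.34, -0.34 and -0.16 and no call. ASPM, which focuses spindle poles, stood at 27.1, 37.5, 26.2 and 59.5 CPM in DU145KO+a2, at 33.1, 31.2, 45.8 and 80.2 CPM in DU145KO+vector and at 24.6, 27.6, 21.0 and 59.4 CPM in DU145KO. DLGAP5, a microtubule-binding protein of the kinetochore fibres, stood at 23.7, 23.2, 11.99 and 42.7 CPM, at 25.6, 21.1, 27.2 and 55.0 CPM and at 20.05, 17.0, 10.4 and 41.8 CPM in the same order of lines. Both overlapped between lines, and replicate 4 was the highest sample of every line.

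Of the 4 cytokinesis genes, 1 was called under the block. RACGAP1, part of the centralspindlin complex of the midzone, stood at 50.6, 58.7, 42.1 and 69.2 CPM in DU145KO+a2, at 57.2, 58.9, 60.2 and 94.3 CPM in DU145KO+vector and at 54.1, 56.0, 43.2 and 74.5 CPM in DU145KO, and was called under the block (log2 fold change -0.29, SE 0.21, adjusted p = 0.438, and 0.00536 under the block). PRC1, which bundles midzone microtubules, had 51.5, 55.3, 39.1 and 73.2 CPM, 57.5, 49.3, 59.5 and 96.3 CPM and 46.8, 44.5, 41.7 and 81.9 CPM in the same order. A share of 34.3% of the exon bases of PRC1 overlaps PRC1-AS1 on the other strand. ECT2, the exchange factor that starts furrowing, had 113, 103, 93.3 and 147 CPM, 106, 95.8, 107 and 130 CPM and 105, 97.6, 76.8 and 136 CPM. PRC1, ANLN and ECT2 had log2 fold changes of -0.26, -0.29 and 0.06 with no call.

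UBE2C, the ubiquitin-conjugating enzyme that starts chains on substrates of the anaphase-promoting complex, was higher in DU145KO+a2 than in both lines without α2. Its level was 61.1, 69.3, 52.3 and 89.6 CPM in DU145KO+a2, 29.8, 26.9, 28.02 and 49.5 CPM in DU145KO+vector and 37.6, 34.3, 17.9 and 42.9 CPM in DU145KO. The lowest DU145KO+a2 sample was above the highest sample of either other line. The log2 fold change was 1.02 to DU145KO+vector (SE 0.28, adjusted p = 0.0397, and 0.00144 under the block) and 1.04 to DU145KO (SE 0.28, adjusted p = 0.0488, and 0.0016 under the block), and it was higher in 4 of 4 pairs in both. UBE2C was singled out with these values known, so its tests here describe the samples and are no independent support. Between DU145KO+vector and DU145KO it was 0.01 (SE 0.29, adjusted p = 0.992). Without the block the call was lost when any of 6 of the 8 samples was left out against DU145KO+vector (adjusted p up to 0.111) and any of 7 of the 8 against DU145KO (up to 0.125), while with the block it held in all 8 (up to 0.00833 and 0.0115).

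UBE2C still followed the replicate number (adjusted p = 0.0224, replicate 4 at 0.49 log2 units above replicate 1) and was the highest in replicate 4 of each line. Set against the summed CPM of the other 46 members, its level was even within DU145KO+a2. It amounted to 37.0, 37.3, 37.1 and 35.1 CPM per 1000 CPM of the other members in DU145KO+a2, to 16.5, 15.6, 14.1 and 15.8 in DU145KO+vector and to 22.3, 20.9, 13.6 and 16.5 in DU145KO. Means were 36.6 ± 1.05 (SD, n = 4), 15.5 ± 1.02 and 18.3 ± 3.99. The ratio sets out the same contrast for which UBE2C was singled out, and it was not tested.

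**Figure D4:**
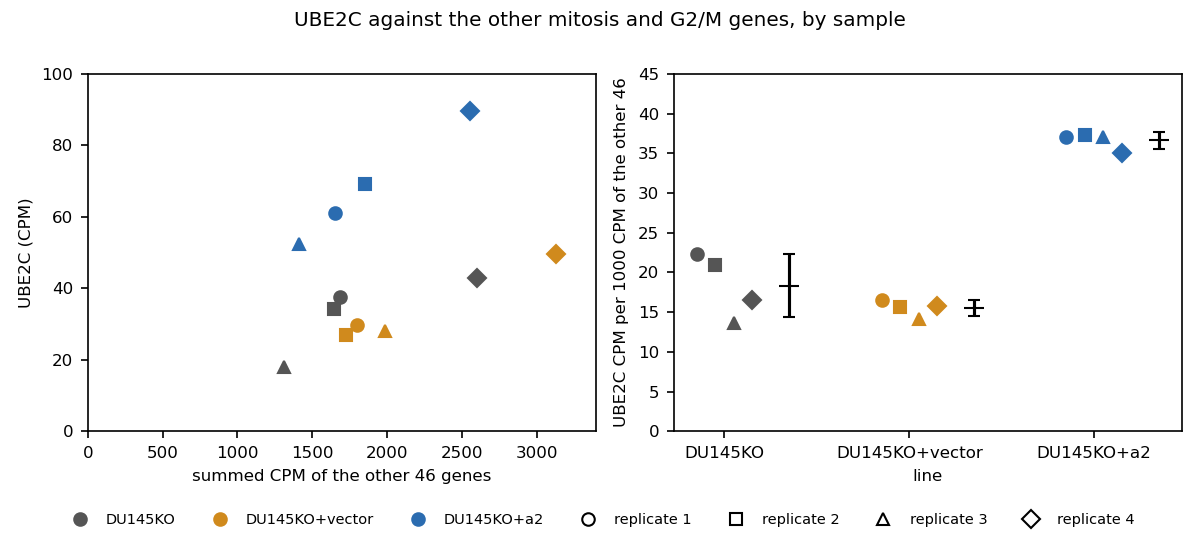
Left, UBE2C (CPM) against the summed CPM of the other 46 genes in each of 12 samples, coloured by line and shaped by replicate number. Right, UBE2C per 1000 CPM of the other 46 genes, with the mean and SD of each line beside the points. The 4 DU145KO+a2 samples lie between 35.1 and 37.3, and the 8 samples without α2 between 13.6 and 22.3.

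The other members around the anaphase-promoting complex were not called higher against DU145KO+vector. UBE2S, which elongates the chains that UBE2C starts, stood at 25.9, 33.3, 24.0 and 50.04 CPM in DU145KO+a2, at 28.6, 29.2, 27.96 and 38.5 CPM in DU145KO+vector and at 21.8, 21.3, 21.5 and 36.6 CPM in DU145KO. Its log2 fold change was 0.10 to DU145KO+vector (SE 0.24, adjusted p = 0.856, and 0.635 under the block) and 0.39 to DU145KO (SE 0.25, adjusted p = 0.41, and 0.0035 under the block). CDC20, the activator of the complex in mitosis, had 17.6, 28.9, 13.1 and 41.8 CPM in DU145KO+a2, 20.1, 25.5, 23.8 and 55.2 CPM in DU145KO+vector and 15.5, 16.5, 13.3 and 33.4 CPM in DU145KO. PTTG1, the securin it destroys, had 10.99, 12.8, 7.56 and 18.3 CPM, 14.0, 10.8, 13.8 and 27.3 CPM and 10.3, 10.5, 6.64 and 21.4 CPM in the same order. CDC20, PTTG1 and ESPL1 (separase) had log2 fold changes to DU145KO+vector of -0.29, -0.40 and -0.33, with ESPL1 called lower under the block (adjusted p = 0.0187). Of the 17 core subunits and cofactors that are not members, 2 were called lower against DU145KO+vector (against 5.95% of all genes). These were ANAPC2 (-0.38, adjusted p = 0.00279) and CDC26 (-0.50, adjusted p = 0.0029), and none was called higher in edgeR without a block (against 5.96%). Against DU145KO, FZR1 was called higher (0.24, adjusted p = 0.0496) and CDC23 lower (-0.37, adjusted p = 0.00584).

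UBE2C lies on chromosome 20 (20:45812644-45816952, plus strand, GRCh38.p14), and genes beside it, which were named after their values were seen, also differed. DNTTIP1, whose annotated end is 1225 bases before UBE2C, stood at 133, 119, 116 and 145 CPM in DU145KO+a2, at 88.6, 85.0, 79.0 and 80.2 CPM in DU145KO+vector and at 106, 93.5, 77.3 and 85.0 CPM in DU145KO. Its log2 fold change was 0.62 to DU145KO+vector (adjusted p = 0.000558) and 0.50 to DU145KO (adjusted p = 0.0035). SNX21, on the other side, stood at 295, 270, 258 and 260 CPM in DU145KO+a2, at 175, 146, 138 and 128 CPM in DU145KO+vector and at 195, 156, 136 and 122 CPM in DU145KO. That was 0.88 (adjusted p = 0.000449) and 0.83 (adjusted p = 0.000836). In both genes every DU145KO+a2 sample was above every sample of the other lines. WFDC3 (0.63, adjusted p = 0.0398) and PCIF1 (0.29, adjusted p = 0.031) were also called higher against DU145KO+vector, and PCIF1 against DU145KO (0.33, adjusted p = 0.0177).

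Within 250 kb of UBE2C 17 other genes were tested. Of these 12 had positive log2 fold changes to DU145KO+vector (median 0.29, 4 called higher, 0 lower) and 15 to DU145KO (median 0.33, 3 called higher, 0 lower). The 16 genes from 250 kb to 1 Mb had medians of -0.06 and -0.10. Among them PIGT was called lower against DU145KO+vector (-0.25, adjusted p = 0.046). SLPI (-2.17, adjusted p = 0.00209) and WFDC2 (-1.73, adjusted p = 9.15e-05) were called lower against DU145KO. Both were also called lower in DU145KO+vector than in DU145KO (-2.03 and -2.195). Between DU145KO+vector and DU145KO the median of the 17 was 0.04. For 23 other members with at least 5 tested genes within 250 kb, the medians ran from -0.11 to 0.30 against DU145KO+vector and from -0.27 to 0.18 against DU145KO, so the value at UBE2C was inside the first range and above the second. The window was chosen after the values were seen. Not every gene near UBE2C was called, among them ACOT8 (-0.26 and 0.02) and ZSWIM3 (-0.14 and 0.23). UBE2C has 5 named pseudogenes, and since uniquely aligned reads alone were counted, reads that match one of them equally well were not counted for it in any line.

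**Figure D5:**
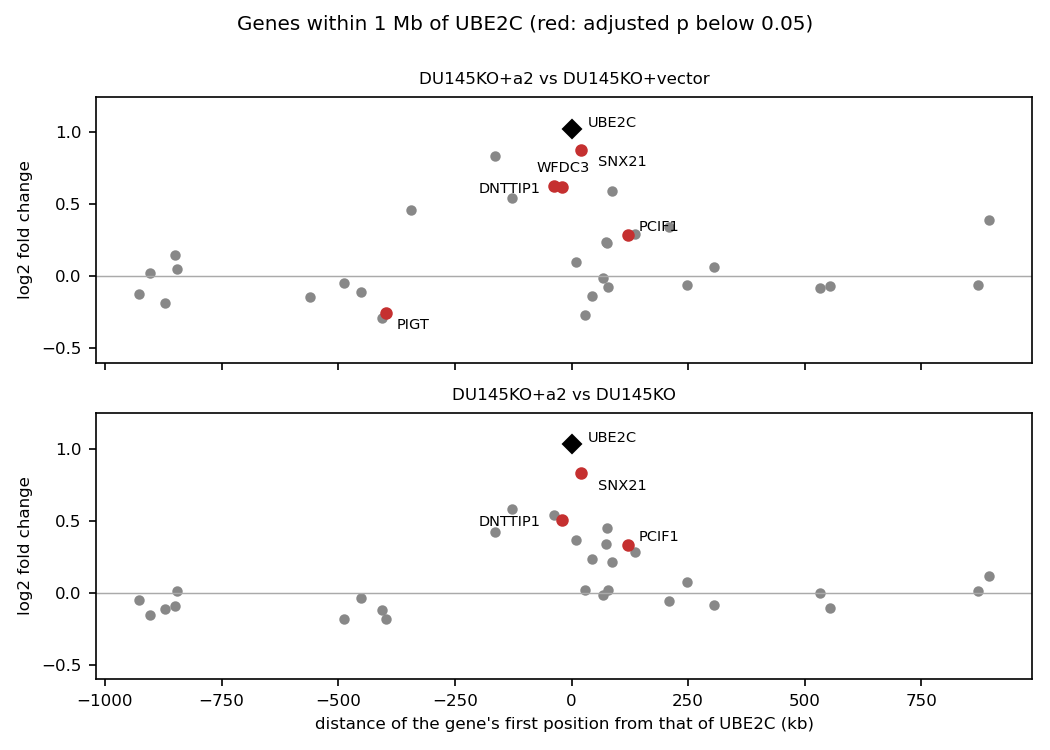
Log2 fold changes of 33 tested genes within 1 Mb of UBE2C against the distance of the gene's first position from that of UBE2C (kb), for DU145KO+a2 against DU145KO+vector (top) and against DU145KO (bottom). Red points have an adjusted p below 0.05 and the black diamond is UBE2C. The axis of the bottom panel leaves out SLPI (-2.17) and WFDC2 (-1.73), which lie below it. The largest positive values, up to 0.88 for SNX21 in the top panel, gather within 250 kb of UBE2C.

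DU145KO+vector and DU145KO both lack α2 cDNA and differ in the vector and its selection. Without the block 0 members were called higher (against 0.496% of all genes) and 0 lower (against 1.84%), with 1 member higher (against 6.13%) and 1 lower (against 8.9%) at an unadjusted p under 0.05 in edgeR, and DESeq2 and voom with limma without a block did not move either count. Yet 46 of 47 log2 fold changes were positive, against 49.7% of all genes, with a median of 0.40 (-0.00107 over all genes). Here too the members move together and are not independent observations. In 34 members DU145KO+vector was higher in 4 of 4 pairs, which held for 17.5% of all genes. Under the block 14 members were called higher (29.8%, against 5.59% of all genes) and 0 lower (against 7.85%). They were CCNB2, CDC20, CDCA3, CDCA8, ESPL1, NCAPH, NUF2, NUSAP1, PLK1, RACGAP1, SMC2, SPC25, TPX2 and UBE2S. SPC25 had the largest value at 0.92 (SE 0.33, adjusted p = 0.182, and 0.00472 under the block), followed by NUF2 at 0.70 (adjusted p = 0.558, and 0.0139 under the block) and CDC20 at 0.65 (adjusted p = 0.578, and 0.012 under the block). CDC25B had the remaining, negative value (50.3% of all genes were negative) of -0.27 (SE 0.10, adjusted p = 0.188).

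The difference between these 2 lines without α2 was uneven over the pairs. In replicates 1 to 4 the members' median differences were 0.22, 0.17, 1.04 and 0.30 log2 units, with 42, 36, 46 and 46 of 47 members higher in DU145KO+vector. Without DU145KO+vector replicate 4 the fitted median was 0.07, and without DU145KO replicate 4 it was 0.76. The blocked count of 14 became 8 without DU145KO replicate 2 or replicate 3 and 9 without DU145KO+vector replicate 4. It was 10 when replicate 4 was left out of every line (against 5% of 14751 genes). The share of all genes called without a single sample is not given here.

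Against DU145KO, DU145KO+a2 had members on both sides. UBE2C was called higher (1 of 47, 2.13%, against 3.09% of all genes) and 0 were called lower (against 5.08%, with 0 at an unadjusted p under 0.05, against 12.1% of all genes, and 0 in DESeq2 or voom with limma without a block). At an unadjusted p under 0.05, 2 were higher (against 9.3%), UBE2C and CDC25B, which were also the 2 whose groups did not overlap (against 5.51%). The median was 0.07, with 31 positive and 16 negative values (against 49.2% and 50.8% of all genes). Under the block UBE2C and UBE2S were called higher (against 9.93% of all genes), and SMC2 (-0.23, adjusted p = 0.041) and SMC4 (-0.31, adjusted p = 0.000335) lower (against 12.4%). SMC2 was no longer called there without any 1 of 5 samples, while SMC4 was called without each of the 8 samples in turn. The members' median differences in replicates 1 to 4 were -0.07, 0.35, 0.16 and -0.05. The 3 comparisons share samples, so these values stand side by side and are not independent of one another. Read together, SMC2 and SMC4 were called lower in DU145KO+a2 against both lines under the block. The other 7 members called lower under the block against DU145KO+vector were not called against DU145KO. Among these 7, BUB3 was also lowest in DU145KO+a2 in each of the 4 replicate numbers. Its blocked value against DU145KO was -0.12 (adjusted p = 0.063).

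Further cell cycle lists were read in the same way. The 58 other mitosis and G2/M genes had 50 negative values between DU145KO+a2 and DU145KO+vector (median -0.22). Without the block 0 were called higher (against 5.96% of all genes) and 1 lower (against 5.95%), ZW10 (-0.28, adjusted p = 0.0381). Under the block 1 was called higher (against 12.9%) and 14 lower (against 13.7%). Between DU145KO+vector and DU145KO the same list had 53 positive values (median 0.24). There 1 was called higher without the block (against 0.496% of all genes). Under the block 13 were called higher (against 5.59%) and 1 lower (against 7.85%). Between DU145KO+a2 and DU145KO the list had 33 positive values (median 0.04). MELK, a kinase of this list, had -0.94 between DU145KO+a2 and DU145KO+vector (adjusted p = 0.0773, and 0.00834 under the block). Between DU145KO+a2 and DU145KO+vector the 33 G1/S and DNA replication genes had 29 negative values (median -0.25). Of these genes 0 were called without the block. With it 8 were called lower (against 13.7% of all genes), among them GMNN (-0.36) and FEN1 (-0.44), and 0 higher (against 12.9%). This list had 30 positive values between DU145KO+vector and DU145KO (median 0.17) and 10 between DU145KO+a2 and DU145KO (median -0.12). In the list of G1 cyclins, kinases and inhibitors, 13 genes were tested. Between DU145KO+a2 and DU145KO+vector 1 was called higher (against 5.96% of all genes) and 3 lower (against 5.95%) without a block. CDK6, a kinase that starts the cycle, fell by 1.10 (adjusted p = 0.00142), CCND3, cyclin D3, by 0.78 (adjusted p = 0.00111), and CDKN1C, an inhibitor of cyclin-dependent kinases, rose by 0.77 (adjusted p = 0.00232). Both falls were also called against DU145KO (-0.82 and -0.57, adjusted p = 0.0146 and 0.0128). The 12 MuvB, B-MYB and pocket protein genes had 0 calls without the block in any comparison (medians from -0.03 to 0.05). With the block, 1 was called higher and 2 lower between DU145KO+a2 and DU145KO+vector (against 12.9% and 13.7% of all genes). The other comparisons had 0 calls with it.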

How the data were processed

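RNA from spheroids of 3 lines with 4 replicates each was sequenced. Per the labels and the study's methods, libraries came from a stranded mRNA kit and gave single-end reads, called with bcl2fastq (1.8.4), aligned to hg38 with TopHat2 (2.1.0) and counted per gene with Subread (1.5.0) from uniquely aligned reads. The authors deposited the counts per gene and RPKM values that use TMM library sizes. The strand setting of the counting, and which samples ran in which lane, are not given in the sources used here. Replicates are stated to be independent biological ones, and with 12 distinct samples none was merged (chi-square per degree of freedom of replicate pairs 5.88 to 19.5).

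Counts were tested in R (4.3.3) with edgeR (4.0.16, TMM, filterByExpr with a minimum count of 10, quasi-likelihood F-test, Benjamini-Hochberg adjustment over all genes) in 1 model of all 12 samples with the line as the term. A second model added the replicate number as a block, and its 3 coefficients were tested together for the replicate effect. In a check of the pairing, deviations from the line means correlated between same-numbered samples in all 12 pairs (r 0.135 to 0.554, mean 0.378). The mean between different numbers, -0.126, follows from taking out the line means and is no separate support. All 12 samples had their best match in both other lines at the same number, so the numbers were taken to pair the samples. RPKM values were used to compare levels between genes, and CPM values elsewhere. DESeq2 (1.42.0), voom with limma (3.58.1), other scalings, filters, sample choices and the leaving out of each sample were tried as alternatives. The procedures were also run on simulated data, with a smaller spread and replicate effect than the members had. That run does not show how the procedures perform on the members. Counting limits cover counting error only. Members and gene lists were chosen with earlier results of these data known. Values in every sample are given for UBE2C, UBE2S, FOXM1 and MKI67 and, in each role, for the 2 members with the smallest unadjusted p between DU145KO+a2 and DU145KO+vector and the 1 with the smallest in each other comparison. For the lists, up to 3 genes with the smallest unadjusted p in a comparison may be named. Promoters and gene positions came from RefSeq (GRCh38.p14). Some marker genes are not reported here.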

Additional observations from a re-analysis of the deposited data

Results flagged for a closer look

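A sample stood apart from the other 3 of its line in 23 of 156 groups of 4 tested by Dixon's ratio, the gap to the nearest sample over the whole range (above its 95% critical value). About 7.8 such groups are given by chance, and the groups are not independent, since the genes share samples. All 23 concern replicate 4, which was the highest sample in 22. In DU145KO+vector there were 15, with ratios of 0.963 (CCNB1), 0.906 (CCNB2), 0.862 (FOXM1), 0.880 (CDCA3), 0.961 (AURKA), 0.870 (TPX2), 0.844 (AURKB), 0.899 (BIRC5), 0.881 (CDCA8), 0.847 (CDC20), 0.874 (UBE2C), 0.880 (UBE2S), 0.947 (ESPL1), 0.883 (NCAPH) and 0.918 (RACGAP1). In DU145KO there were 5, with 0.833 (BUB1), 0.879 (BUB1B), 0.840 (CDC20), 0.967 (UBE2S) and 0.872 (PRC1). In DU145KO+a2 CDC25B had 0.925 and CENPE 0.887, both with replicate 4 the highest. UBE2C per 1000 CPM of the other 46 members had 0.863 in DU145KO+a2, with replicate 4 the lowest at 35.1 against 37.0 to 37.3.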

How the results depend on the processing

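The calls changed with the replicate block and with the sample left out, and the cause was not tested. Shares of all genes called are given above for the edgeR fits on all 12 samples. They are not given for DESeq2, voom, other scalings or filters, the 2 lines alone, or fits without 1 sample. Member counts from those fits are therefore not read as particular to the members. Members called lower in DU145KO+a2 than in DU145KO+vector numbered 0 in edgeR without the block, 9 with the replicate block, 18 with voom and the block, 13 with DESeq2 and the block, 1 each with DESeq2, with voom and with the 2 lines alone, and, at replicates 1 to 3, 2 without and 4 with the block. Leaving out 1 sample gave 0 in each fit without the block and with it 5 without DU145KO+a2 replicate 3 or 4, 6 without DU145KO+a2 replicate 1 or DU145KO+vector replicate 4, 7 without DU145KO+vector replicate 1, 8 without its replicate 3, 23 without its replicate 2 and 25 without DU145KO+a2 replicate 2. Members called higher there numbered 2, and 1 past a 2-fold change or with no filter on low counts (1 to 2 leaving out 1 sample). Members called higher in DU145KO+vector than in DU145KO numbered 0, and 14 with the block, 21 with voom and the block, 21 with DESeq2 and the block and 10 with the block at replicates 1 to 3 (0 to 1 leaving out 1 sample, with the block 8 to 20, among them 11 and 12 without DU145KO+vector replicate 1 and 3). Members called lower numbered 0, and 1 (CDC25B) at replicates 1 to 3 without or with the block and with DESeq2 and the block (0 to 1 leaving out 1 sample, with or without the block). In DU145KO+a2 against DU145KO, members called higher numbered 1, and 0 with library size alone or the 2 lines alone, 2 with DESeq2, with the block and with the block at replicates 1 to 3, 3 with voom and the block and 4 with DESeq2 and the block (0 to 1 leaving out 1 sample, 2 to 4 with the block). Members called lower numbered 0, and 2 with the block or with voom and the block, 1 with DESeq2 and the block and 1 with the block at replicates 1 to 3 (0 leaving out 1 sample, 1 to 2 with the block). The replicate number effect was called in 44 members, in 3 without replicate 4 and in 35 to 46 leaving out 1 sample.

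The medians of the members leaving out 1 sample ran from -0.63 to -0.04 for DU145KO+a2 against DU145KO+vector (-0.47 to -0.18 with the block), from 0.07 to 0.76 for DU145KO+vector against DU145KO (0.24 to 0.56) and from -0.17 to 0.42 for DU145KO+a2 against DU145KO (-0.026 to 0.17), where the sign turned. UBE2C between DU145KO+vector and DU145KO, 0.01 and not called, turned to -0.073 at replicates 1 to 3 (-0.031 with the block) and ran from -0.23 to 0.16 leaving out 1 sample (-0.12 to 0.16 with the block, among them -0.0060 without DU145KO replicate 4 and -0.072 and -0.039 without DU145KO+vector replicate 3 and 4). UBE2C in DU145KO+a2 stayed positive under every alternative run, from 0.86 to 1.27 against DU145KO+vector and from 0.83 to 1.18 against DU145KO leaving out 1 sample without the block (0.92 to 1.14 and 0.91 to 1.19 with it), but missed the threshold with no filter (adjusted p = 0.0776 against DU145KO+vector and 0.0903 against DU145KO) and, against DU145KO, with library size alone (0.053) and with the 2 lines alone (0.0706). The CDC25B call against DU145KO+vector held in all 8 fits that leave out 1 sample. With 4 samples a line and a median standard error of 0.38 log2 units (0.16 with the block), most members, at changes near their median, were not called without the block.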
